A study of Mus musculus with 4 samples.

Results

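The genes described here are 10 transcription factors of the endothelial lineage, measured by mRNA-seq in cultured vascular smooth muscle cells (VSMCs). They are the SOXF genes *Sox7*, *Sox17* and *Sox18*, the ETS genes *Erg*, *Fli1* and *Ets1*, the GATA genes *Gata2* and *Gata6*, and *Mecom* and *Lyl1*. They were taken by symbol from a count table of 48587 gene symbols. All 10 had counts in every library and passed the filter on low counts. The 4 libraries come from primary mouse VSMCs that had migrated out of the descending aorta of young adult C57BL/6J mice, after the adventitia was stripped and the endothelium scraped away. All cultures were transduced with a lentivirus that carries a short hairpin and a fluorescent reporter. In the shCTR group the hairpin is directed at a plant microRNA sequence, and in the shMettl14 group at *Mettl14*, a subunit of the complex that writes m6A on mRNA. Each group has 2 libraries, with the letters A and B. Nothing in the labels says that the letters are separate animals or cultures, so the p-values below measure the spread between these libraries, which may be technical.

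SOXF, ETS and GATA factors are sequence-specific DNA-binding proteins that act in combination on enhancers of vascular genes. *Erg*, *Fli1* and the SOXF genes are known for maintaining the junctions and the arterial or lymphatic identity of endothelial cells, and *Gata2*, *Mecom* and *Lyl1* also serve in blood stem and progenitor cells. *Gata6* and *Ets1* are not restricted to endothelium, and *Gata6* is a known regulator of the contractile state of VSMCs.

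Library totals lay between 114343653 and 124815868 counts, so that counting error is small for all 10 genes. *Mettl14*, the gene that the hairpin targets, was at 18.0 and 19.9 CPM (counts scaled to the library size after TMM normalisation) in shCTR A and B, and at 4.60 and 4.37 CPM in shMettl14 A and B. Both shMettl14 libraries were far below both shCTR libraries. The labelled cell type was checked by its markers. The 10 smooth muscle markers summed to 6847 and 5890 CPM in shCTR A and B, and to 4487 and 4894 CPM in shMettl14 A and B, so that both shMettl14 libraries lay below both shCTR libraries. The most abundant of them, *Acta2*, smooth muscle actin, was at 3546 and 2798 CPM in shCTR A and B and at 2171 and 2072 CPM in shMettl14 A and B (edgeR log2 fold change −0.58, unadjusted p = 0.038, adjusted p = 1.0). The 17 endothelial surface and junction markers summed to 3061 and 5575 CPM in shCTR A and B, and to 2958 and 3856 CPM in shMettl14 A and B. None of the 17 was at 0, and *Emcn*, endomucin, was the most abundant of them at 484 to 2099 CPM. The libraries thus held RNA of markers of both cell types, at uneven levels within each list. Among the endothelial markers, *Cdh5* was at 508 to 818 CPM, but *Kdr* at 5.06 to 9.75, *Robo4* at 3.03 to 3.90 and *Cldn5* at 0.57 to 1.15 CPM. Among the smooth muscle markers, *Des* was at 0.62 to 2.55 CPM. The 10 leukocyte markers summed to between 11.2 and 15.4 CPM, of which *Lyz2* was the most abundant at 4.15 to 5.50 CPM, and 5 of the 10 were at 0 in at least 1 library. Markers of lymphatic endothelium summed to between 19.9 and 38.0 CPM (mostly *Flt4*), and of fibroblasts to between 174.1 and 407.7 CPM (*Col14a1* the most abundant). Mesothelial markers summed to 41.6 and 59.3 CPM in shCTR A and B and to 24.3 and 33.5 CPM in shMettl14 A and B. The most abundant of these, *Krt19*, a keratin, had an edgeR log2 fold change of −0.99 (unadjusted p = 0.020, adjusted p = 1.0). Of the 6 mesothelial markers, *Lrrn4* and *Wt1* were at 0 in at least 1 library, and *Msln* was at most at 0.75 CPM. In bulk RNA, fewer cells of a type and less RNA per cell cannot be told apart.

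RefSeq promoter windows of GRCm38.p6, here the 250 bases before a transcription start, were at hand for *Erg*, *Gata2*, *Mecom* and *Lyl1*. They are shown because ETS and GATA proteins, whose transcript levels are described below, bind short sequences in such regions. The window of each gene with the lowest coordinate is printed 5′ to 3′ on the gene's strand. For *Erg* and *Mecom*, on the minus strand, this is the window furthest downstream and lies inside the annotated gene. Capitals mark the ETS core GGAA and the GATA sequence AGATAA on either strand, so that TTCC and TTATCT are matches on the other strand.
Erg (chr16:95459349-95459598, minus strand): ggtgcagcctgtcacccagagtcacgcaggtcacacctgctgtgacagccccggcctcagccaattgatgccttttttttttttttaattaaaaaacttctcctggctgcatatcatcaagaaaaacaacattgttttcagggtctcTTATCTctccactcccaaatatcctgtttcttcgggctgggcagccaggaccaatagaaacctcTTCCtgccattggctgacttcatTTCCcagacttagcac
Gata2 (chr6:88193641-88193890, plus strand): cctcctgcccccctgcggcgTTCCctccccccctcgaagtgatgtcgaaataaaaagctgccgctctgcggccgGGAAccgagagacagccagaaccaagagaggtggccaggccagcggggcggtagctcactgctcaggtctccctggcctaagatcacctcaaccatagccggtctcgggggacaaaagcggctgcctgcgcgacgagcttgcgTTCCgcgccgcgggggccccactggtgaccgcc
Mecom (chr3:30013205-30013454, minus strand): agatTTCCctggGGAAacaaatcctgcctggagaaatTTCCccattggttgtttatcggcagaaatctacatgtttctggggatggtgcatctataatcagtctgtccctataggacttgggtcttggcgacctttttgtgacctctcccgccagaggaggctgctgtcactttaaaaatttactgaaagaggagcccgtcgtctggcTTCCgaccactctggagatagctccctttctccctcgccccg
Lyl1 (chr8:84701207-84701456, plus strand): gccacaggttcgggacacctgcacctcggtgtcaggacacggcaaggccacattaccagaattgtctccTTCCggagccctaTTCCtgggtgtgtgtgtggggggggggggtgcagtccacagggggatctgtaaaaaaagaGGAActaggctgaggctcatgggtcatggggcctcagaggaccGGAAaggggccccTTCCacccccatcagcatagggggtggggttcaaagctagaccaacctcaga
GGAA was found 2 times in the *Erg* window, 3 times in that of *Gata2*, 4 times in that of *Mecom* and 5 times in that of *Lyl1*. *Lyl1* has 1 window, and the others have further windows for other starts, with GGAA found 4 and 0 times in those of *Erg*, 1 time in that of *Gata2* and 1 time in that of *Mecom*. The *Erg* window with 0 is the one before the annotated start of the gene. The printed windows of *Gata2* and *Lyl1* also lie before the annotated start, whereas each *Mecom* window lies inside the gene. Such matches are frequent, since 93.4% of 32851 windows of all genes hold GGAA, with a median of 3 matches. AGATAA was found 1 time in the 8 windows, in the *Erg* window printed, whereas 9.99% of all windows hold it. A match is a description of the letters and not a bound site, and counts per gene do not say which start was used.

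*Erg* was the most abundant of the 10 transcripts per length. Its level was 32.1 ± 8.97 CPM per kb of exon (SD over the 4 libraries), and its lowest library lay above the highest library of *Gata2*, the next gene. *Gata2* at 19.3 ± 4.88 and *Gata6* at 17.5 ± 3.67 CPM per kb overlapped in range. *Sox7* followed at 13.0 ± 1.74 CPM per kb, overlapping *Gata6* in range, although *Gata6* was the higher of the pair in 4 of 4 libraries. Below *Sox7* came a gap in which no library of *Sox18* reached those of *Sox7*. The remaining 6 genes lay close together, each overlapping its neighbour in range. They were *Sox18* at 7.89 ± 2.21, *Fli1* at 7.44 ± 2.48, *Ets1* at 7.27 ± 1.10, *Sox17* at 6.32 ± 0.956, *Lyl1* at 6.13 ± 0.795 and *Mecom* at 5.20 ± 1.74 CPM per kb. Against the 18916 genes tested, these levels per kb ranked from the 64.3 percentile for *Mecom* to the 92.4 percentile for *Erg*.

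**Figure D1:**
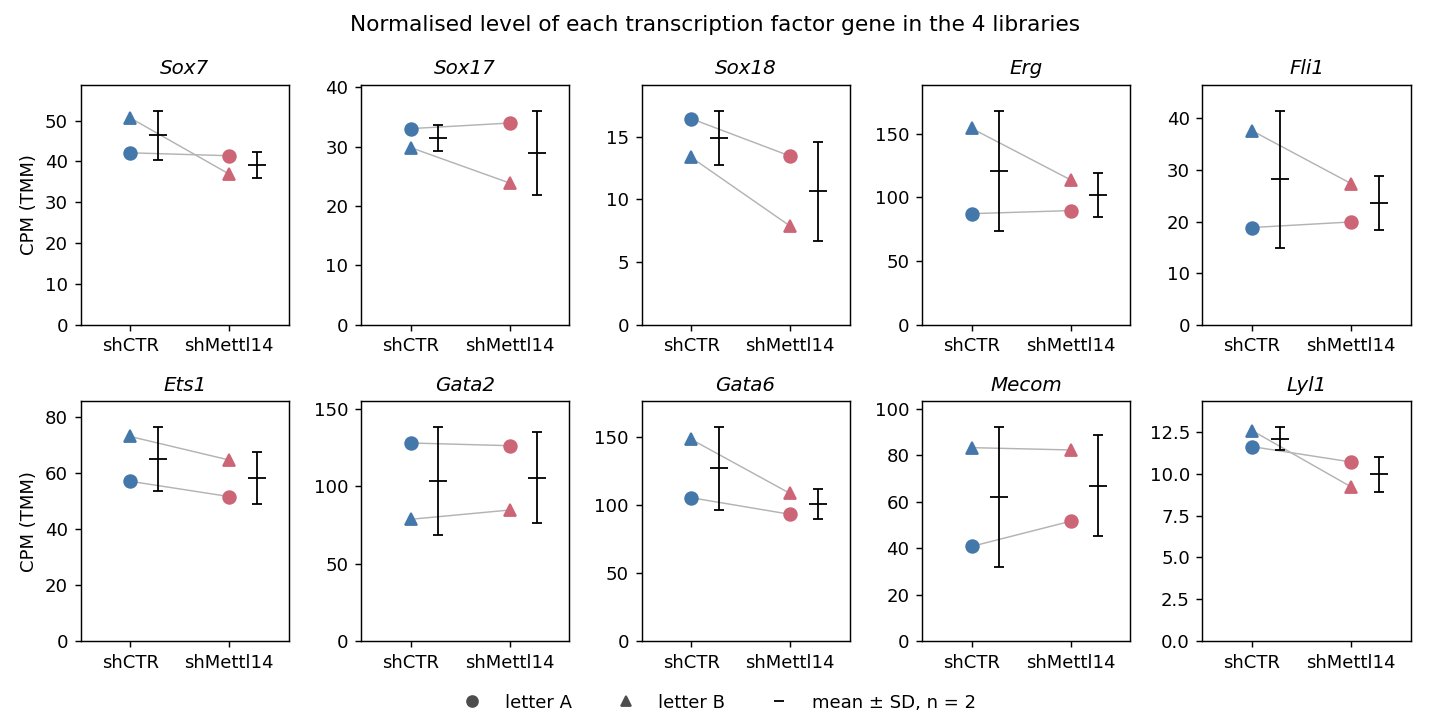
TMM-normalised CPM of the 10 genes (y axis, from 0) in the shCTR and shMettl14 libraries (x axis). Circles are letter A, triangles letter B, grey lines join libraries of the same letter, and black marks give the mean ± SD of the 2 libraries of a group. *Sox7* and *Lyl1* are the panels in which both shMettl14 points sit below both shCTR points, while in *Erg*, *Fli1*, *Gata2* and *Mecom* the letters stand further apart than the hairpins.

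Among the SOXF genes, *Sox18* differed most between the hairpins. This factor of lymphatic and vascular development (ENSMUSG00000046470, minus strand, chr2:181669836-181671640 of GRCm38) had 1869 and 1444 counts in shCTR A and B and 1599 and 1024 in shMettl14 A and B. These are 16.5 and 13.4 CPM with shCTR and 13.5 and 7.87 CPM with shMettl14, or 14.9 ± 2.18 against 10.7 ± 3.95 CPM (SD, n = 2). The shMettl14 library of B was the lowest of the 4, but the shMettl14 library of A lay at the level of shCTR B, so the groups overlapped. The log2 ratio of shMettl14 to shCTR was −0.29 within A and −0.76 within B. In edgeR's quasi-likelihood test the log2 fold change was −0.48 (95% interval −1.38 to 0.41, unadjusted p = 0.22, adjusted p = 1.0). *Sox7*, a SOXF factor of early vascular development (ENSMUSG00000063060, plus strand, chr14:63943673-63950732), was at 42.1 and 50.7 CPM in shCTR A and B and at 41.4 and 36.9 CPM in shMettl14 A and B. Both shMettl14 libraries were below both shCTR libraries, but in A the gap was small beside that in B. Its log2 ratios were −0.02 in A and −0.46 in B, and the edgeR log2 fold change was −0.25 (95% interval −0.79 to 0.30). *Sox17*, which specifies arterial endothelium (ENSMUSG00000025902, minus strand, chr1:4490931-4497354), was at 33.0 and 29.8 CPM with shCTR and at 34.0 and 23.9 CPM with shMettl14, in the order A and B. The A libraries were alike and shMettl14 B was the lowest. The log2 ratio was 0.04 in A but −0.32 in B. The *Sox17* exons overlap those of *Gm37587*, an antisense gene that had between 10 and 22 counts, over 16.9% of their length.

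The ETS genes *Erg* and *Fli1* had nearly the same profile over the 4 libraries. *Erg*, which maintains endothelial identity and quiescence (ENSMUSG00000040732, minus strand, chr16:95359169-95586593), had 9911 and 16670 counts in shCTR A and B and 10650 and 14805 in shMettl14 A and B. This gave 87.2 and 154.3 CPM with shCTR and 89.7 and 113.8 CPM with shMettl14. Both B libraries were above both A libraries, and the hairpin groups overlapped. The log2 ratios between hairpins were 0.04 in A and −0.44 in B, and the edgeR log2 fold change was −0.25 (95% interval −1.11 to 0.61). *Fli1*, a close relative of *Erg* with roles in endothelium and megakaryocytes (ENSMUSG00000016087, minus strand, chr9:32422204-32542861), was at 18.8 and 37.6 CPM in shCTR A and B and at 19.9 and 27.4 CPM in shMettl14 A and B. As with *Erg*, shCTR B stood highest and the A libraries were alike. Its log2 ratios were 0.08 in A and −0.46 in B, and the edgeR log2 fold change was −0.26 (95% interval −1.28 to 0.77). *Ets1*, an ETS factor of angiogenesis and lymphocytes, lies on the plus strand 93359 bases beyond *Fli1* (ENSMUSG00000032035, chr9:32636221-32757820). It was at 57.1 and 73.1 CPM with shCTR and at 51.6 and 64.6 CPM with shMettl14, and was lower with shMettl14 by a like amount in each letter. The log2 ratios were −0.15 in A and −0.18 in B, smaller than the difference between the letters. The edgeR log2 fold change was −0.16 (95% interval −0.77 to 0.45).

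The GATA genes differed from each other. *Gata2*, which acts in endothelium and blood progenitors (ENSMUSG00000015053, plus strand, chr6:88193891-88207032), was at 128.0 and 78.7 CPM in shCTR A and B and at 126.3 and 84.7 CPM in shMettl14 A and B. Here the A libraries were the high ones with either hairpin, the reverse of *Erg*, and the group means of 103.4 ± 34.8 and 105.5 ± 29.4 CPM (SD, n = 2) were close. The edgeR log2 fold change was 0.03 (95% interval −0.84 to 0.90). *Gata6* (ENSMUSG00000005836, plus strand, chr18:11052064-11085635) was at 105.3 and 148.2 CPM with shCTR and at 93.1 and 108.4 CPM with shMettl14. It was lower with shMettl14 in both letters, the log2 ratio being −0.18 in A but −0.45 in B, although shMettl14 B stayed above shCTR A. The edgeR log2 fold change was −0.33 (95% interval −0.97 to 0.31, unadjusted p = 0.24, adjusted p = 1.0).

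*Mecom* and *Lyl1* moved in different ways. *Mecom*, a zinc finger factor of arterial endothelium and blood stem cells (ENSMUSG00000027684, minus strand, chr3:29951296-30548008), had 4639 and 9007 counts in shCTR A and B and 6138 and 10716 in shMettl14 A and B. Normalised, it was at 40.8 and 83.4 CPM with shCTR and at 51.7 and 82.4 CPM with shMettl14. Both B libraries were above both A libraries, and of the 10 genes *Mecom* had the highest log2 ratio between hairpins in A, 0.34, against −0.02 in B. The edgeR log2 fold change was 0.11 (95% interval −0.99 to 1.21). *Lyl1*, a basic helix-loop-helix factor of endothelium and blood (ENSMUSG00000034041, plus strand, chr8:84701457-84704715), was at 11.6 and 12.6 CPM in shCTR A and B and at 10.7 and 9.22 CPM in shMettl14 A and B. Like *Sox7*, it had both shMettl14 libraries below both shCTR libraries, at 12.1 ± 0.679 CPM with shCTR and 9.96 ± 1.05 CPM with shMettl14 (SD, n = 2). Its log2 ratios were −0.12 in A and −0.45 in B, and the edgeR log2 fold change was −0.28 (95% interval −0.92 to 0.36, unadjusted p = 0.31, adjusted p = 1.0).

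Across the 10 genes, the comparison of hairpins asks whether a lower *Mettl14* level goes with another level of these factors. *Sox7*, *Sox18*, *Ets1*, *Gata6* and *Lyl1* were lower with shMettl14 in both letters, which is 5 of 10 genes against 27.7% of all genes tested. None was higher in both, against 30.1%. Within A, 6 of 10 were lower against 49.8% of all genes, which is close to the background, and the median log2 ratio of the 10 was −0.02. Within B, 9 of 10 were lower against 47.8%, with a median of −0.44 beside 0.02 for all genes. The lower values were thus mainly those of letter B. In B the summed endothelial markers were also lower with shMettl14, at 3856 CPM against 5575, while in A they were at 2958 against 3061. Much of the difference in B was *Emcn*, at 1077 CPM with shMettl14 against 2099 with shCTR. Of the 17 endothelial markers, 12 were lower in B and 10 in A, against the same 47.8% and 49.8% of all genes. The summed smooth muscle and mesothelial markers were lower with shMettl14 in both letters, as given above, and 7 of the 10 smooth muscle markers were lower in both, with a median log2 fold change of −0.41. The part of these cell types in the result was not tested. Counting error alone left a 95% interval (Clopper-Pearson) of at most 0.117 on each side of a log2 ratio, and these intervals left out 0 for 6 of the 10 genes in A and 9 in B. They cover counting error only. The share of all genes with such intervals was not computed, so these counts do not set the 10 genes apart. The split depends on the scaling. With library totals in place of TMM, 4 of the 10 were lower in both letters, against 18.3% of all genes. *Gata2* and *Mecom* were higher in both, against 41.7%. All genes shifted to medians of 0.08 in A and 0.16 in B. Relative to the median of all genes, 5 were below and 0 above in both letters with TMM, RLE factors or totals. The share of all genes was not computed for this comparison.

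**Figure D2:**
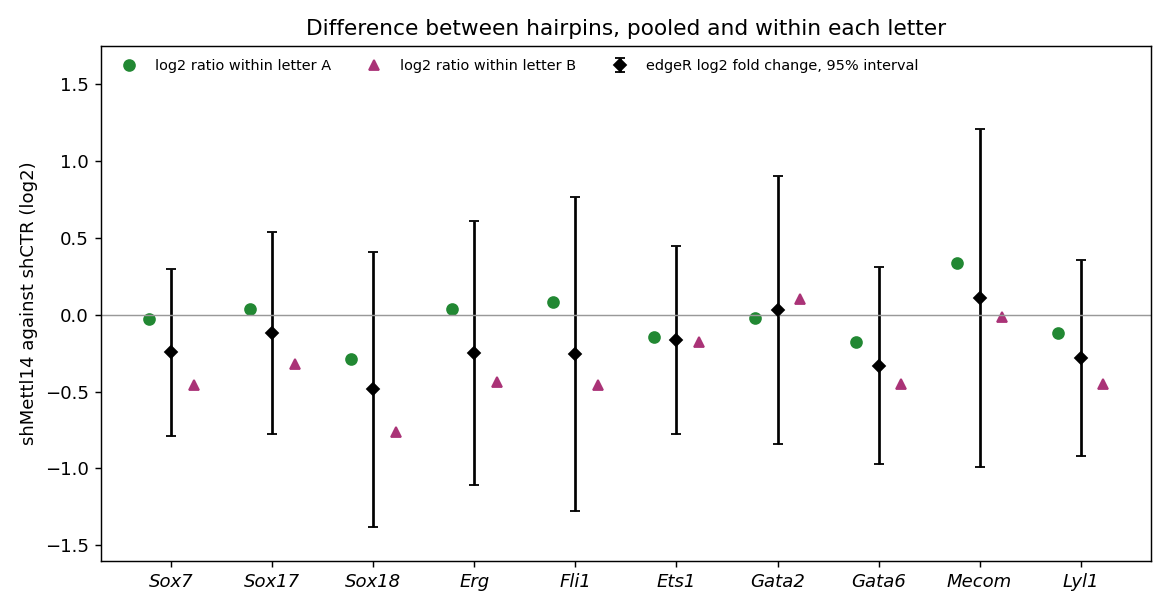
Log2 difference of shMettl14 from shCTR (y axis) for each of the 10 genes (x axis). Black diamonds with bars are edgeR log2 fold changes with 95% intervals, green circles the ratios within letter A and purple triangles those within letter B. All 10 intervals include 0, and 9 of the 10 triangles lie below 0 while the circles lie on both sides of it.

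No difference between the hairpins passed the test for any of the 10 genes. In edgeR with hairpin alone, *Mettl14* itself did not pass an adjusted p under 0.05. Its edgeR log2 fold change was −2.08 (unadjusted p = 0.00039), and this p was the smallest of all genes tested. DESeq2 did call *Mettl14*. The lack of calls in edgeR therefore does not show that the 10 genes were unchanged. In edgeR, 8 of the 10 log2 fold changes were below 0 and 2 above, against 9230 of the 18916 genes tested below 0. The median of the 10 was −0.25 beside 0.01 for all genes. At an adjusted p under 0.05, 0 of the 10 passed, against 0% of all genes tested, and DESeq2 also called 0 of the 10. At an unadjusted p under 0.05, 0 of the 10 passed, against 1.67% of all genes. *Sox7* and *Lyl1* were the 2 of 10 with both shMettl14 libraries below both shCTR libraries, against 13.3% of all genes, and 0 had both above, against 14.7%. For a single gene, the smallest two-sided p that an exact permutation test allows with 2 libraries a group is 0.333. The intervals above show what the spread leaves possible. That of *Sox7* reached −0.79 and that of *Sox18* −1.38 on the log2 scale, so that a sizeable lower level was not excluded by these libraries. The upper ends were 0.30 for *Sox7*, 0.41 for *Sox18* and 1.21 for *Mecom*, so a higher level was not excluded either.

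The letters separated 4 of the 10 genes beyond the spread that remained after the hairpin was accounted for. *Mecom* was higher in B than in A by a log2 fold change of 0.85 (standard error 0.17, 1.80-fold, adjusted p = 0.0062 in edgeR with letter and hairpin as terms). *Fli1* was higher in B by 0.73 (standard error 0.18, 1.66-fold, edgeR adjusted p = 0.021), and *Erg* by 0.58 (standard error 0.17, 1.5-fold, edgeR adjusted p = 0.042). *Gata2* went the other way, with a log2 fold change of −0.64 (standard error 0.15, 0.643-fold, edgeR adjusted p = 0.019). These are 3 genes higher in B, against 6.69% of all genes tested, and 1 lower in B, against 8.95%. *Sox18* at −0.54 (edgeR adjusted p = 0.086) and *Sox17* at −0.33 (adjusted p = 0.22) had lower values in B that did not pass, and *Gata6* at 0.36 and *Ets1* at 0.34 had higher values that did not pass. *Sox7* at 0.05 and *Lyl1* at −0.05 had the smallest differences between letters, and they are the genes whose hairpin groups did not overlap. The same 4 libraries give each observation, and a small letter difference makes such a separation easier, so they are not independent. Without regard to the test, 5 of the 10 genes had both B libraries above both A libraries, against 27.2% of all genes, and 3 had both below, against 28.8%. The letter difference exceeded the hairpin difference in size for 8 of the 10, against 65.4% of all genes tested, so the 10 genes are near the background in this. The fit had 1 residual degree of freedom per gene and took most of its spread from other genes. What the letters mark is not stated. The summed endothelial and mesothelial markers also moved with the letters, being higher in B than in A with either hairpin. Of the 17 endothelial markers, 10 had both B libraries above both A libraries and 3 had both below. Of the 10 smooth muscle markers, 3 had both B libraries above both A libraries and 4 had both below. At an edgeR adjusted p under 0.05, *Myocd* (log2 fold change 3.3) and *Mylk* (1.7) were higher in B and *Myh11* (−1.7) was lower. The summed fibroblast markers were lower in B, at 208.7 CPM against 407.3 in A with shCTR and at 174.1 against 407.7 with shMettl14. This was mainly *Col14a1*, at 37.5 CPM in B against 321.5 in A with shCTR and at 44.5 against 318.3 with shMettl14. *Dcn* went the other way, at 159.7 CPM against 68.2 with shCTR and at 120.2 against 72.3 with shMettl14. Of the 7 fibroblast markers, 4 had both B libraries below both A libraries and 1 had both above. The part of these cell types was not tested.

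**Figure D3:**
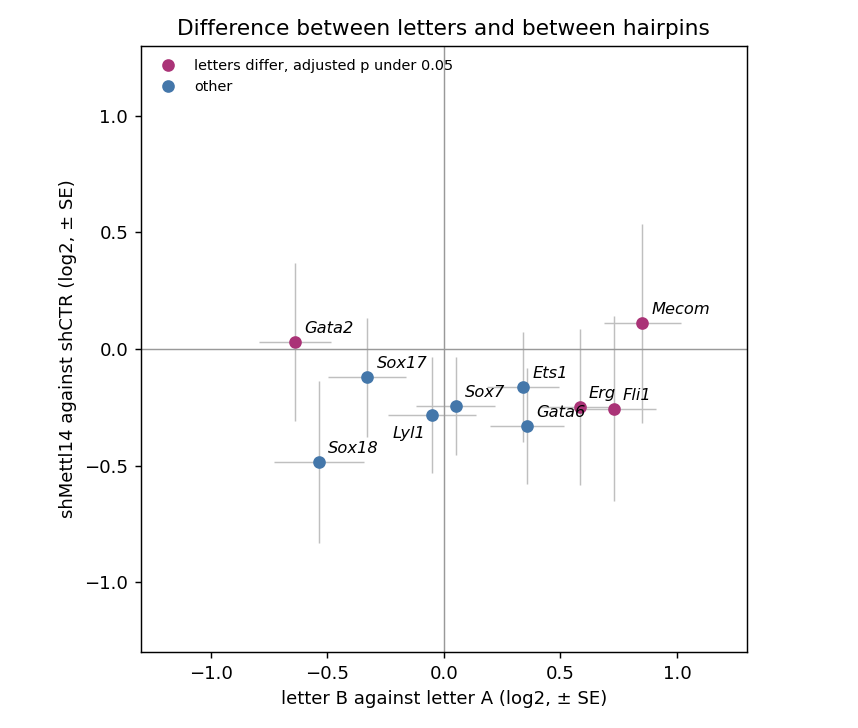
Log2 fold change between hairpins (y axis) against that between letters (x axis) for the 10 genes, with standard errors from edgeR. Purple points (*Mecom*, *Fli1*, *Erg*, *Gata2*) passed an adjusted p of 0.05 between letters, and none passed between hairpins. The points spread from −0.64 to 0.85 along the x axis and from −0.48 to 0.11 along the y axis.

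Within their families, the described GATA genes held most of the transcript, while the SOX and ETS genes shared theirs with others. *Gata2* and *Gata6* together took between 87.3% and 90.4% of the summed CPM per kb of the 6 GATA genes, and *Gata3* at 4.09 CPM per kb was the next. *Sox7*, *Sox17* and *Sox18* took 44.2% and 45.4% of the 19 SOX genes in shCTR A and B, and 35.0% and 34.8% in shMettl14 A and B. The share was lower in both shMettl14 libraries than in both shCTR libraries. *Sox4*, a SOXC gene, was the most abundant of the family at 27.8 CPM per kb. Its log2 ratio was 0.60 in A and 0.29 in B, so a higher *Sox4* level entered this share in both letters. In A *Sox4* was at 24.1 CPM per kb with shCTR and 36.5 with shMettl14. The log2 ratios of *Sox7* (−0.02) and *Sox17* (0.04) in A were near 0, and that of *Sox18* was −0.29. In B *Sox7*, *Sox17* and *Sox18* were all lower with shMettl14. The edgeR log2 fold change of *Sox4* was 0.46 (unadjusted p = 0.094, adjusted p = 1.0). Among 26 ETS genes, *Erg*, *Fli1* and *Ets1* took between 21.8% and 33.5%, with shCTR B highest. *Erg* at 32.1 CPM per kb overlapped in level with *Elk3*, a repressor of serum response genes, at 31.5 CPM per kb, and *Erf*, another ETS repressor, followed at 22.5 CPM per kb.

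**Figure D4:**
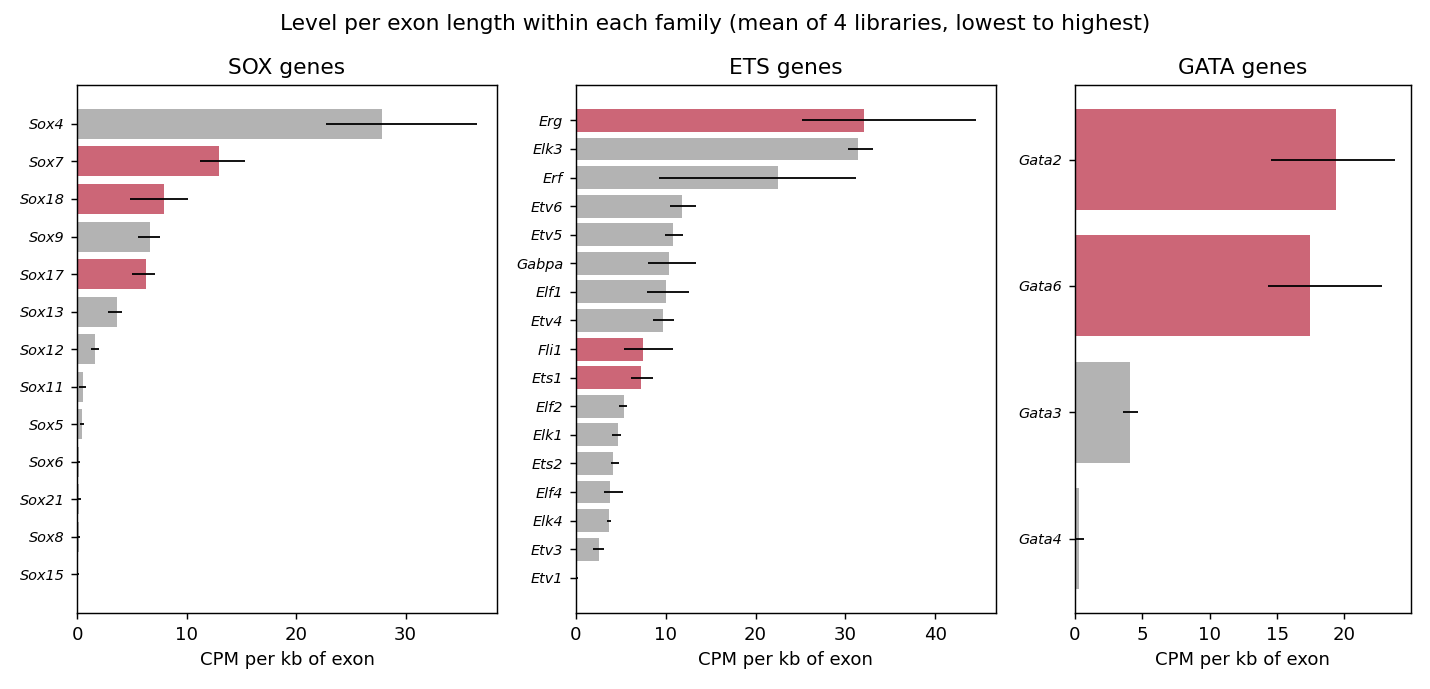
Mean level per exon length (x axis, CPM per kb, from 0) of each SOX, ETS and GATA gene with a mean of at least 0.1 CPM per kb (y axis). Red bars are the described genes, grey bars the other family members, and black lines run from the lowest to the highest of the 4 libraries. *Erg* and *Elk3* lead the ETS genes, *Sox4* the SOX genes, and *Gata2* and *Gata6* the GATA genes.

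Other genes of the same regulatory network gave no call between the hairpins. Of 26 further transcription factors known to act with these genes in endothelium, 24 were tested, *Etv2*, the early haemangioblast ETS factor, was at 0 in all libraries, and *Meox2* had counts in 1 library only. Of the 24, 15 were lower and 9 higher with shMettl14, 0 passed an adjusted or an unadjusted p under 0.05 in edgeR with hairpin alone, and their median log2 fold change was −0.11. Within the letters, 10 were lower in both, against 27.7% of all genes, and 4 higher in both, against 30.1%. Both shMettl14 libraries were below both shCTR libraries for 5 of the 24, against 13.3% of all genes, and above for 0, against 14.7%. The 5 were *Ets2*, *Foxc2*, *Bcl6b*, *Vezf1* and *Hlx*, and they are listed here after their values were seen. The 11 known targets of these factors, such as Notch pathway and angiogenic genes, were lower in 4 cases and higher in 7, with 0 at an adjusted or unadjusted p under 0.05 and a median of 0.01. The 17 endothelial surface and junction markers were lower in 14 cases and higher in 3, again with 0 at either threshold. The background for these directions in the 3 lists is 9230 lower of all 18916 genes tested. DESeq2 likewise called 0 genes of these 3 lists at an adjusted or unadjusted p under 0.05. Of the 17, 5 were lower in both letters, close to the 27.7% of all genes, and 0 were higher in both, and the hairpin groups overlapped for each of the 17. Among the 11 targets, 1 (*Efnb2*, an arterial ephrin, named after its values were seen) had both shMettl14 libraries above both shCTR libraries and 0 had both below. Between the letters, 6 of the 17 markers were higher and 2 lower in B at an adjusted p under 0.05, as were 2 higher and 5 lower of the 24 transcription factors and 4 higher and 0 lower of the 11 targets. The shares of all genes tested are the 6.69% higher and 8.95% lower given above.

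Each of the 10 genes was set beside 62 other genes, and the one nearest in profile over the 4 libraries was noted. The 62 were 24 partner, 17 endothelial, 11 target and 10 smooth muscle genes. Which list a nearest gene comes from thus depends in part on this make-up. The 10 genes were not set beside each other. The measure was the Euclidean distance of log2 CPM after centring on each gene's mean, so a small value means that both genes rose and fell together across libraries by like amounts. *Fli1* and *Erg* were both nearest to *Kdr*, the VEGF receptor of endothelium, at distances of 0.070 and 0.098. *Mecom* was nearest to *Tek*, the angiopoietin receptor, at 0.098, and *Gata2* to *Egfl7*, a secreted endothelial protein, at 0.208. *Kdr* was low, at 5.06 and 9.75 CPM in shCTR A and B and at 5.21 and 6.87 CPM in shMettl14 A and B. It had the pattern of *Erg*, with shCTR B highest and the A libraries alike. *Ets1* was nearest to a smooth muscle gene, *Smtn*, at 0.096. The other genes were nearest to partner factors. *Sox7* was at 0.136 from *Ets2*, *Gata6* at 0.147 from *Vezf1*, *Sox17* at 0.170 from *Nfatc1*, *Lyl1* at 0.177 from *Hlx*, and *Sox18* at 0.358 from *Foxc2*, the largest distance of the 10. With 4 libraries that differ mainly by letter, the distances describe these libraries and carry no test.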

How the data were processed

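Poly-A-enriched, strand-specific libraries of 4 VSMC samples were sequenced as read pairs. Per the submitters' notes, the authors used STAR on mm10 and featureCounts. They deposited raw counts per gene, in 1 table, without normalisation. Whether strand was used in counting, and how reads on several places were treated, is not given in the sources used here. Counts were analysed with edgeR 4.0.16 in R 4.3.3 (TMM, filterByExpr with 18916 genes left, robust quasi-likelihood fit, Benjamini-Hochberg adjustment over all genes tested, threshold 0.05), on hairpin alone, and on letter and hairpin for the comparison of letters. The study's methods name DESeq2, which was an alternative here (version 1.42.0). Within-letter ratios added a prior count of 2 to log2 CPM. Gene places and exon lengths are from GENCODE M21, matched for 46378 symbols. The edgeR and DESeq2 fits were also run on simulated counts, whose outcome is not used here.

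The 10 genes and all lists were chosen with earlier results of these data known. Named beside them are *Mettl14*, the 3 most abundant genes per length of each family, the nearest gene in profile to each of the 10, the most abundant gene of each marker list described and list genes at 0. Genes with an unadjusted p under 0.05, or an adjusted one in the replicate block, were to be named, a rule set for the families, partners and targets, where none met it. *Meox2*, *Bcl6b*, *Dcn*, and *Gm37587* as an overlapping gene, were named after their values were seen. So were the markers *Cdh5*, *Robo4*, *Cldn5*, *Des*, *Msln*, *Lrrn4*, *Wt1*, *Myh11*, *Mylk* and *Myocd*. Alternatives were RLE and upper-quartile normalisation, no filter, a minimum of 10 counts per library, DESeq2, a replicate block, library totals and each library left out.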

Additional observations from a re-analysis of the deposited data

How the results depend on the processing

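The number of genes called between hairpins was 0 in edgeR with hairpin alone, 4 with DESeq2 and 9 with the replicate block, in which the letter is a term. Of the 10 genes, 0 were called under every alternative run. With the replicate block the unadjusted p of *Sox18* was 0.020 (log2 fold change −0.53, edgeR adjusted p 0.40), and no other of the 10 had an unadjusted p under 0.05, beside 10.3% of all genes in that fit, so 1 of 10 is at the background. At an unadjusted p under 0.05 the block also gave 4 partner factors lower and 1 higher of 24, 1 target lower and 1 higher of 11, and 1 endothelial marker lower of 17. Whether the letters pair the libraries is not stated, and libraries of the same letter deviated together (correlation across genes 0.578). Leaving out 1 library, with the lone library assumed to vary like the other group, gave log2 fold changes from −0.40 to 0.11 for *Sox17* (above 0 without shMettl14 B), and above 0 without shCTR B for *Erg* (−0.60 to 0.22), *Fli1* (−0.67 to 0.33) and *Ets1* (−0.33 to 0.026). *Gata2* ranged from −0.29 to 0.42, below 0 without shCTR B or shMettl14 A, and *Mecom* from −0.32 to 0.71, below 0 without shCTR A or shMettl14 B. *Sox7* (−0.38 to −0.11), *Sox18* (−0.92 to −0.15), *Gata6* (−0.56 to −0.06) and *Lyl1* (−0.39 to −0.18) stayed below 0 in all 4 such fits. The other normalisations and filters and DESeq2 turned no direction. With library totals, 2 of the 10 were higher in both letters in place of 0, against 41.7% of all genes with that scaling. Between letters, 4 of the 10 passed under each alternative, and *Sox18* was the fifth with no filter on low counts (−0.55, edgeR adjusted p 0.042). That comparison could not be fitted with a library left out. Depth does not limit these genes, whose lowest count was 1024, but 2 libraries per group do.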
